A study of Mus musculus with 10 samples.

Results

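The Platr genes (pluripotency-associated transcripts) are mouse loci numbered as a series, most of them annotated as long noncoding RNAs. Members were the rows of the expression table with a gene name of Platr followed by digits alone, and 30 of 46955 rows met this rule. In 29 rows the name stood alone. Platr16 shared its row with the predicted gene Gm13230, so its values belong to the pair. RNA was sequenced from embryoid bodies (EBs, aggregates of embryonic stem cells that differentiate in suspension), embryonic stem cells (ESCs) and whole wild-type (WT) embryos, in a study of Strap, a gene encoding a WD40-repeat protein. The groups were Strap knockout (KO, Strap-/-) EBs (n = 2), WT EBs (n = 2), Strap KO ESCs (n = 1), WT ESCs (n = 1), WT embryos at embryonic day 9.0 (E9.0, n = 2) and WT embryos at day 8.0 (E8.0, n = 2), all labelled C57BL/6. ESC lines came from blastocysts of heterozygous intercrosses, the KO lines with a Strap deletion made with zinc finger nucleases, and were grown on fibroblast feeders with leukemia inhibitory factor (LIF). EBs were 9 days old, grown first without LIF and then in N2B27 medium with basic FGF, and embryos were pooled. The study describes the libraries of an EB or embryo group as biological replicates, and whether EBs of a genotype came from separate ESC lines is not given in the sources used here.

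Long noncoding RNAs are transcribed and spliced much like messenger RNAs but have no long reading frame. The Platr series was named after RNA-seq of mouse ESCs and their differentiated derivatives, as loci with RNA abundant in ESCs and reduced on differentiation. In ESCs, the factors OCT4 (Pou5f1), SOX2 and NANOG occupy regulatory sequence near many such loci, and depletion of Platr14 in ESCs is known to alter the expression of developmental genes. Platr10 has been placed in the control of pluripotency at chromatin, and Platr4 in mesendoderm commitment.

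Promoter sequences of the RefSeq annotation (GRCm38.p6), each reaching from 250 bases before to 50 bases after an annotated start, were found for 13 members, in 15 windows. Those of 4 members are shown 5' to 3' on the transcribed strand: Platr14 had the highest level, Platr10 was lower and Platr22 higher in EBs than in ESCs, and 1 of the 2 Platr21 windows held the octamer ATGCAAAT bound by POU factors. Capitals mark a motif match on either strand.
Platr14, chr2:104559209-104559508, plus strand: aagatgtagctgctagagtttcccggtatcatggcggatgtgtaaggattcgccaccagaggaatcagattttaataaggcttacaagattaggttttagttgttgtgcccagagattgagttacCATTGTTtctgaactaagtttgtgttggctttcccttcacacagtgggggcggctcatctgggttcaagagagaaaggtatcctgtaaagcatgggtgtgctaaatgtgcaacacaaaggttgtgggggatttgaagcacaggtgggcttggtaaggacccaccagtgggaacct
Platr10, chr3:75655682-75655981, minus strand: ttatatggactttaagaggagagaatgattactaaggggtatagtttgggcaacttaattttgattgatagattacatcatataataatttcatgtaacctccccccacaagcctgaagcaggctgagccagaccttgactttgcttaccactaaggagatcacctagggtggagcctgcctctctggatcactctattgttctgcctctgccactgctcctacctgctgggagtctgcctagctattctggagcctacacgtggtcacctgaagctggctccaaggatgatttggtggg
Platr22, chr1:136695961-136696260, plus strand: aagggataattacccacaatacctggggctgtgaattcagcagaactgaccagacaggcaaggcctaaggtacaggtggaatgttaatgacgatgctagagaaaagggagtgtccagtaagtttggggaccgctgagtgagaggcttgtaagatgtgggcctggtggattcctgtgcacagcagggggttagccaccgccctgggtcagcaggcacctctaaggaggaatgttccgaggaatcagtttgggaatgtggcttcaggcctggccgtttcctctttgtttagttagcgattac
Platr21, chrX:139357689-139357988, minus strand: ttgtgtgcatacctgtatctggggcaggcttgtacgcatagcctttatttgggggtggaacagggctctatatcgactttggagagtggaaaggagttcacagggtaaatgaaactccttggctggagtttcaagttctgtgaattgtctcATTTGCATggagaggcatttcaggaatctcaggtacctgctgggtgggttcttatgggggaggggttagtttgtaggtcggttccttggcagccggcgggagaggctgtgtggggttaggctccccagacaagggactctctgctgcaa
The capitals in Platr14 are CATTGTT, a core of sites bound by SOX factors, at position -125 from the annotated start. Those in Platr21 are the reverse complement of ATGCAAAT at position -99. The annotated Platr14 start in RefSeq lies inside the GENCODE locus (chr2:104559163-104571429), which starts further upstream. Across all 15 windows, searched on both strands, ATGCAAAT matched in 1 window, CATTGTT in 2 (Platr14 and Platr8) and the TATA box TATAAA in 1 (Platr5), against 1.74%, 3.78% and 13.6% of all 32851 promoter windows. TCAAGGTCA, a sequence bound by ESRRB and NR5A2, and GGGTGTGGC, a sequence bound by KLF factors, matched in 0 of the 15 windows, against 0.423% and 1.35% of all windows. The median window of a member held 4 CpG dinucleotides and 49% G and C, against 7 and 52.7% among all windows.

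Across the series, Strap had 8.48 and 11.3 FPKM in KO EBs, against 49.7 and 47.2 FPKM in WT EBs, and 14.5 FPKM in KO ESCs, against 68.7 FPKM in WT ESCs, so every library labelled KO was below every library labelled WT. FPKM counts fragments relative to the length of the transcript and to the size of the library. The steps between low values implied 10909000 to 18646000 fragments per EB library, 6723000 to 6894000 per ESC library and 34197000 to 55019000 per embryo library, so a zero in an ESC library is less informative than one in an embryo. The first WT EB library stood apart, with 14.6% of its summed FPKM in rows that resemble ribosomal RNA, against 0.77% to 6.81% in the other EB and ESC libraries. The summed level of 8 ESC and naive pluripotency markers (8 of 8 detected) was also lowest there among EBs and ESCs, at 426 FPKM, against 1033 FPKM in the second WT EB library and 1407 and 1784 FPKM in KO EBs. That sum was 2217 to 2293 FPKM in ESCs and 14.7 to 27.6 FPKM in embryos. In the column headers, the EB libraries numbered 1 share a prefix, those numbered 2 share another with E9.0 embryos, and ESCs and E8.0 embryos have their own. What the prefix marks is not given in the sources used here.

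Of the 30 members, 22 were detected at FPKM of 1 or more in at least 1 library, 21 of them in rows with a single name. All 22 reached this level in an ESC library, 17 in an EB library and 3 (Platr14, Platr21 and Platr25) in an embryo library. The KO EB libraries each held 16 members at this level and the WT EB libraries 13 and 16, the KO ESC library 18 and the WT ESC library 19, the E9.0 libraries 0 and the E8.0 libraries 3 and 1. The number of rows of any kind at this level varied much less, at 27.4% to 29.6% of the table in every library. Of the rest, 6 members (Platr6, Platr8, Platr15, Platr19, Platr23 and Platr29) were above 0 without reaching 1 FPKM, the highest of them Platr29 with 0.838 FPKM in KO ESCs, and Platr2 and Platr30 were listed at 0 in all 10 libraries. The least abundant member counted as detected was Platr1, at 1.02 FPKM in KO ESCs.

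The summed FPKM of the members was 157 and 171 in KO EBs and 82.6 and 172 in WT EBs, against 248 in KO ESCs and 312 in WT ESCs. It was 3.03 and 3.47 in E9.0 embryos and 6.94 and 5.67 in E8.0 embryos. The EB libraries thus lay below both ESC libraries and far above every embryo library, and the first WT EB library was the lowest of the 4. Platr14 alone made up 31.5% to 40.6% of the sum in each EB and ESC library. In bulk RNA, fewer cells that transcribe a locus and less RNA per cell cannot be told apart.

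**Figure D1:**
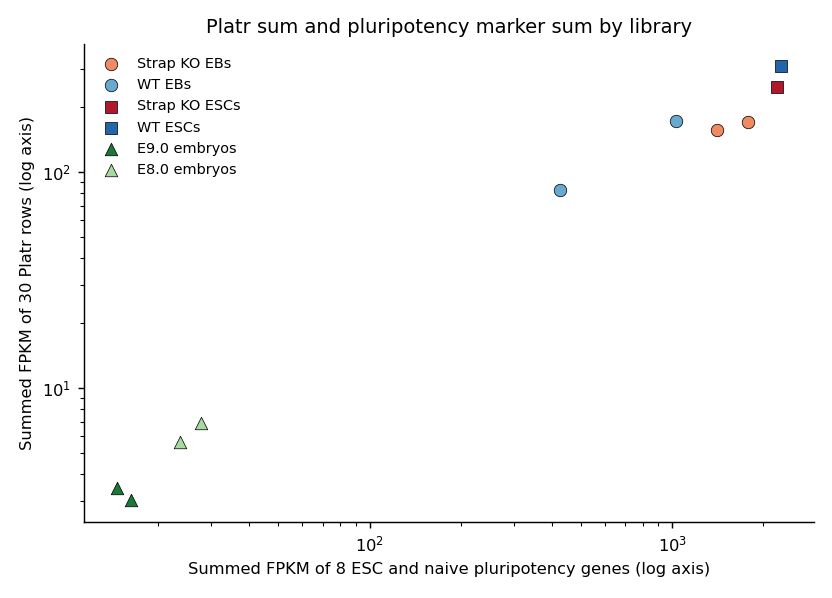
Summed FPKM of the 30 Platr rows (vertical, log axis) against the summed FPKM of 8 ESC and naive pluripotency genes (horizontal, log axis), 1 point per library in 6 groups. ESCs and EBs lie at 82.6 to 312 FPKM on the Platr axis and the 4 embryo libraries at 3.03 to 6.94 FPKM, and the first WT EB library is the lowest of the EBs on both axes.

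In ESCs the order of levels, as the mean FPKM of the 2 libraries, ran from Platr14 (98.3) through Platr10 (45.1), Platr16 with Gm13230 (35.8), Platr12 (16.2), Platr3 (14.8), Platr17 (14.1), Platr4 (13.3), Platr27 (7.86), Platr21 (5.67), Platr11 (5.02), Platr25 (4.79) and Platr20 (4.13) to Platr26 (2.42). FPKM is scaled to length, which allows genes to be set side by side. With 1 KO and 1 WT library, the neighbours Platr12, Platr3, Platr17 and Platr4 overlapped in their values (12.1 to 18.2 FPKM). So did Platr10 with Platr16, Platr16 with Platr12, and each neighbouring pair in the order from Platr21 to Platr26. Platr27 stood apart from both of its neighbours. Platr14 exceeded every other member in both libraries, at 92.6 FPKM in KO ESCs and 104 FPKM in WT ESCs. Platr13, Platr7, Platr5, Platr28, Platr9, Platr32, Platr22, Platr1 and Platr31 averaged between 0.60 and 2.04 FPKM in ESCs.

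**Figure D2:**
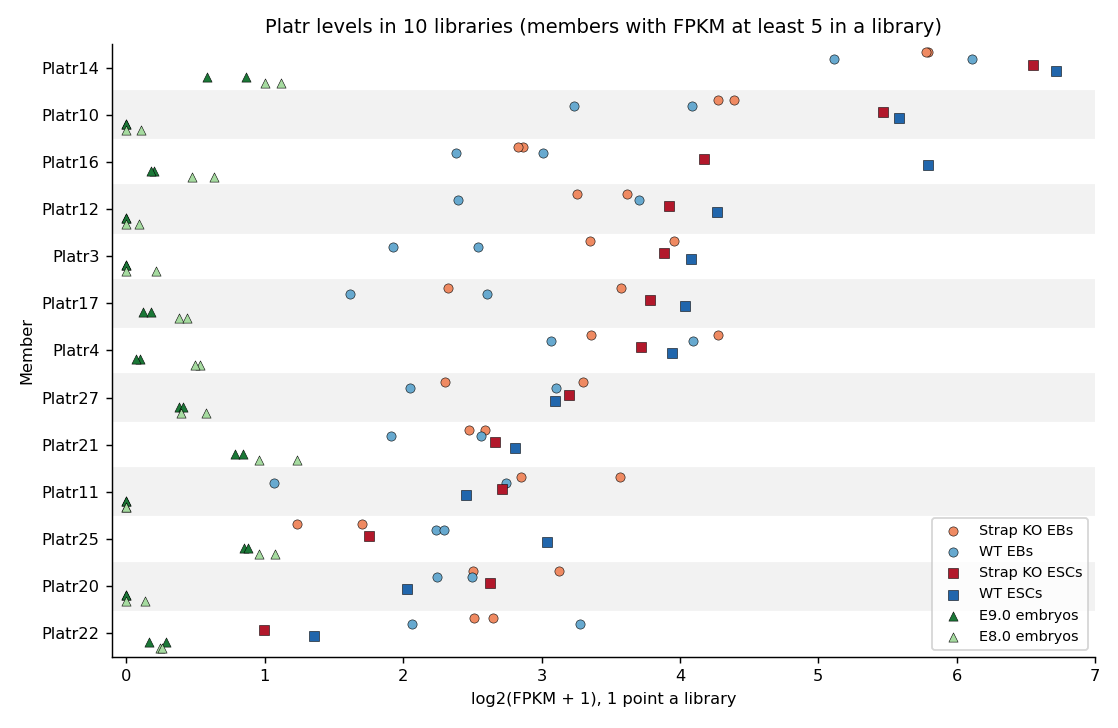
Levels of the 13 members with FPKM of at least 5 in a library, as log2(FPKM + 1) on the horizontal axis, 1 point per library, members ordered by their ESC mean. No embryo library (triangles) exceeds 1.35 FPKM for a member shown, and Platr22 at the bottom is the member with all 4 EB points above both ESC points.

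Comparison of EBs with ESCs asked how the members stood after 9 days of differentiation. Platr10 and Platr16 fell in EBs, Platr22 rose, and the EB values of Platr4 and Platr27 lay on both sides of the ESC values. Of the 22 detected members, 9 had all 4 EB values below both ESC values (Platr14, Platr10, Platr16, Platr12, Platr17, Platr21, Platr5, Platr28 and Platr9), 1 had them above (Platr22) and 12 overlapped. The same count was not made over all rows, so it describes these members and does not set them apart from other genes. All 22 reached 1 FPKM in an ESC library and 17 did in an EB library. The choice of detected members thus favours values that are higher in ESCs. Platr5, Platr28 and Platr9 reached that level in ESCs alone. Among the 10 members with a mean ESC level of at least 5 FPKM, the mean EB level was 16.6% to 119% of the mean ESC level, with a median of 54.6%. The same quantity had a median of 44.0% (10.6% to 406%) over 26 listed pluripotency genes and of 94.1% over the 9375 rows of that level.

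Platr10 had 18.3 and 19.97 FPKM in KO EBs and 8.39 and 16.0 FPKM in WT EBs, against 43.3 FPKM in KO ESCs and 46.9 FPKM in WT ESCs. The groups did not overlap, and the difference was -1.53 ± 0.29 on the log2(FPKM + 1) scale (SE, limma adjusted p = 0.0153). Platr16, counted with Gm13230, had 6.30 and 6.12 FPKM in KO EBs and 4.22 and 7.06 FPKM in WT EBs, against 17.1 FPKM in KO ESCs and 54.4 FPKM in WT ESCs. All 4 EB libraries were below both ESC libraries, which themselves differed widely, and the difference was -2.21 ± 0.42 (SE, limma adjusted p = 0.0148). Platr22, in the interval between the zinc finger gene Zfp281 and the nuclear receptor gene Nr5a2, went the other way: it had 4.72 and 5.29 FPKM in KO EBs and 3.18 and 8.71 FPKM in WT EBs, against 0.994 FPKM in KO ESCs and 1.56 FPKM in WT ESCs. These values rested on 112, 85, 85 and 241 fragments in EBs, against 10 and 16 in ESCs. The difference was 1.45 ± 0.36 (SE, limma adjusted p = 0.0324). Testing asked for 1 FPKM or more in 2 or more libraries, which Platr22 met in EBs and not in ESCs. Its test is therefore no support for the rise, and the values are given as a description.

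Over all rows, limma called 4199 of 15090 (27.8%), 13% higher and 14.8% lower in EBs, and rescaling the libraries without rows that resemble ribosomal RNA turned the split of 1963 higher and 2236 lower into 1304 higher and 3112 lower. Of the 30 members, 19 passed the filter, which asked for 1 FPKM or more in 2 or more of the 6 libraries, and the test called 1 higher and 4 lower. The other called members were Platr28 (-1.06 ± 0.22, adjusted p = 0.0186) and Platr9 (-0.78 ± 0.21, adjusted p = 0.0414), which passed that filter through the ESC libraries alone and so had to differ. Platr22 passed it through the EB libraries, where it was high, as given above. With 5 of 19 called, the share of the members is near that of all rows and is no result about them. The median difference was -0.51 over the members tested, against 0.04 over all rows tested. Rescaling moved the median of all rows by over 0.1, to -0.13, and that of the members to -0.63.

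The 5 calls leaned on the 2 ESC libraries. Without the WT ESC library limma called 0 of them (adjusted p of 0.160 for Platr10, 0.103 for Platr16, 0.167 for Platr22, 0.114 for Platr28 and 0.204 for Platr9), and without the KO ESC library it kept Platr16 and lost Platr10 (0.0646), Platr22 (0.206), Platr28 (0.0528) and Platr9 (0.0774). Platr22 was also lost without either KO EB library (0.0756 and 0.0582) or the second WT EB library (0.0555), Platr28 without the second WT EB library (0.0542), and Platr9 without the first KO (0.105), first WT (0.0972) or second WT (0.113) EB library. Platr22 was further lost with no filter (0.0733) and in WT libraries alone (0.0653), and Platr9 with 0.1 FPKM added in place of 1 (0.0657). No left-out library turned the direction of these differences.

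Platr14 had 54.5 and 53.8 FPKM in KO EBs and 33.5 and 68.2 FPKM in WT EBs, against 92.6 FPKM in KO ESCs and 104 FPKM in WT ESCs. Although no values overlapped, the difference of -0.93 ± 0.28 just missed the threshold (limma adjusted p = 0.0527). Of the 6 left-out libraries, it was called without the first (adjusted p = 0.0217) or the second WT EB library (0.0342) and not without the first (0.103) or second KO EB library (0.0782), the KO ESC library (0.181) or the WT ESC library (0.321). It was also called after rescaling without ribosomal-like rows (0.0196), after median scaling (0.0433), with a filter of 5 FPKM (0.0496) and with all 10 libraries in the fit (0.0282). Platr17, which has a short reading frame in the annotation, had 10.9 and 4.00 FPKM in KO EBs and 2.06 and 5.10 FPKM in WT EBs, against 12.8 FPKM in KO ESCs and 15.4 FPKM in WT ESCs. Its difference was not called (-1.38 ± 0.48, limma adjusted p = 0.0809). It was called without the first KO EB library (adjusted p = 0.0388), after rescaling without ribosomal-like rows (0.0388), with all 10 libraries in the fit (0.0304) and in WT libraries alone (0.0439). Platr12 had 8.57 and 11.3 FPKM in KO EBs and 4.25 and 12.0 FPKM in WT EBs, against 14.1 FPKM in KO ESCs and 18.2 FPKM in WT ESCs, again without overlap and without a call (limma adjusted p = 0.157).

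Platr4, Platr27 and Platr20 overlapped between EBs and ESCs. Platr4 had 9.23 and 18.4 FPKM in KO EBs and 7.39 and 16.0 FPKM in WT EBs, against 12.1 FPKM in KO ESCs and 14.4 FPKM in WT ESCs. Platr27 had 3.93 and 8.87 FPKM in KO EBs and 3.15 and 7.59 FPKM in WT EBs, against 8.19 FPKM in KO ESCs and 7.54 FPKM in WT ESCs. Platr20 had 4.67 and 7.73 FPKM in KO EBs and 3.73 and 4.64 FPKM in WT EBs, against 5.19 FPKM in KO ESCs and 3.07 FPKM in WT ESCs. The EB values of Platr4 and Platr27 spread across the ESC values, and those of Platr20 lay between the ESC values in 3 libraries and above them in the second KO EB library. Platr21 had 4.56 and 5.02 FPKM in KO EBs and 2.76 and 4.89 FPKM in WT EBs, against 5.33 FPKM in KO ESCs and 6.01 FPKM in WT ESCs, with all EB values below both ESC values and a mean EB level of 76.0% of the ESC mean.

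Among 26 listed pluripotency genes, all of them tested, 1 was called higher and 12 lower in EBs, with a median of -1.19. Nanog, a core pluripotency factor, fell by 2.08 ± 0.35 (SE, limma adjusted p = 0.0107) and Pou5f1 by 1.69 ± 0.38 (adjusted p = 0.0249), while the RNA-binding factor Lin28a rose by 1.97 ± 0.19 (adjusted p = 0.00236). Of 19 other listed long noncoding RNAs, 5 were called higher and 3 lower, and Lncenc1, an ESC transcript, was not called (-0.82 ± 0.40, adjusted p = 0.170). The feeder fibroblast markers (8 of 8 detected) summed to 35.7 and 26.8 FPKM in KO EBs and 244 and 62.6 FPKM in WT EBs, against 306 FPKM in KO ESCs and 310 FPKM in WT ESCs. The collagen gene Col3a1, which shares its row with AC125167.1, had 13.97 and 12.5 FPKM in KO EBs and 198 and 30.2 FPKM in WT EBs, against 28.4 FPKM in KO ESCs and 16.1 FPKM in WT ESCs, so that it made up most of the sum in the first WT EB library. The mean EB level of the other 7 markers was 4.51% to 53.0% of the ESC mean. Extraembryonic endoderm markers (9 of 9 detected) summed to 247 and 273 FPKM in KO EBs and 281 and 299 FPKM in WT EBs, against 10.6 FPKM in KO ESCs and 15.9 FPKM in WT ESCs. The part of either cell type in the differences of the Platr RNAs was not tested.

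Set against the ESC library of the same genotype, the mean EB level of the 10 members with at least 5 FPKM in ESCs had a median of 74.2% in KO and of 46.7% in WT, and the KO share was the larger for 10 of 10. Without the first WT EB library the WT median was 65.7%, and the KO share was the larger for 8 of 10. All these shares rest on the same EB and ESC libraries, so the members are not independent of one another. Shares by genotype were not computed over all rows, so the counts are no result about the members. The gap in percentage points was widest in Platr11, with means of 154% in KO and 76.0% in WT. The shares of its single libraries overlapped, at 112% and 195% in KO and 24.5% and 127% in WT. In Platr3, KO EBs stood at 105% and 66.8% of the KO ESC library, against 17.7% and 30.4% of the WT ESC library in WT EBs. In a fit of the 6 EB and ESC libraries with a genotype by stage term, limma called 0 of 15090 rows (810 with an unadjusted p under 0.05), and the members with an unadjusted p under 0.05 were Platr16, Platr3 and Platr7 (adjusted p = 0.901 for each).

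**Figure D3:**
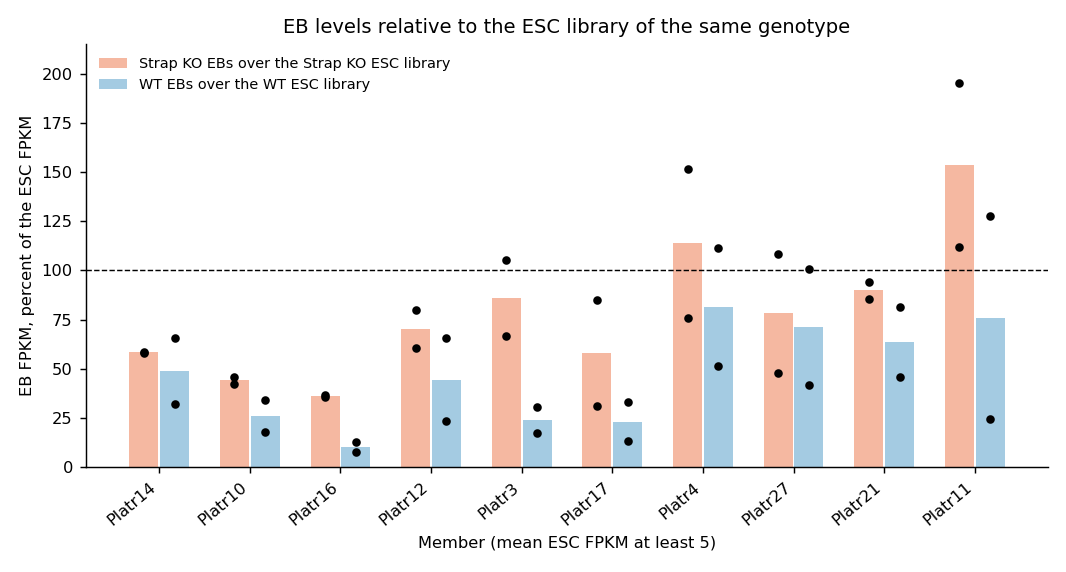
FPKM in EBs as a percentage of the FPKM in the 1 ESC library of the same genotype, for the 10 members with a mean ESC level of at least 5 FPKM. Bars are means of 2 EB libraries, points are the libraries and the dashed line marks 100%. For Platr16, both WT points lie below both KO points, where the WT ESC library held 54.4 FPKM and the KO ESC library 17.1 FPKM.

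Comparison of Strap KO with WT EBs asked whether loss of Strap changed the members on day 9. None of the 16 members tested was called in the fit of the 4 EB libraries by genotype alone. Platr13 was read in both KO EB libraries and in neither WT EB library, Platr3 was higher in both KO EB libraries than in either WT EB library, and Platr25 was lower in both, but these differences did not pass adjustment over all rows. Platr14 did not differ beyond its spread, at 54.1 ± 0.48 FPKM in KO EBs and 50.9 ± 24.5 FPKM in WT EBs (SD, n = 2 each).

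Over all rows, limma called 7 of 14109 (0.0496%), 0.0213% higher and 0.0284% lower in KO EBs, and 1824 rows (12.9%) had an unadjusted p under 0.05. Of the 30 members, 16 were tested, and 0 were called in either direction. An unadjusted p under 0.05 was found for 3 of them, 2 higher and 1 lower in KO EBs. A fit that also held the 4 embryo libraries called 610 rows and 2 members, Platr13 (limma adjusted p = 0.0191) and Platr3 (limma adjusted p = 0.0458). That fit takes part of its spread from the embryos, and Platr13 passed its filter through the KO EB libraries alone.

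Platr13 had 2.36 and 2.76 FPKM in KO EBs, from 9 and 7 fragments, against 0 fragments in both WT EB libraries. It likewise had 4.09 FPKM in KO ESCs, from 7 fragments, against 0 fragments in WT ESCs. The detections followed the genotype in all 6 libraries, although E8.0 embryos, which are WT, held 0.657 and 0.114 FPKM of it, from 7 and 1 fragments. A count of 0 allows up to 3 fragments, which is 0.693 and 0.668 FPKM in the WT EB libraries and 1.77 FPKM in the WT ESC library. The KO mean as read was 3.77 times the mean WT limit in EBs, and the KO value was 2.31 times the WT limit in ESCs. These ratios leave out the counting error of the KO values and so are not lower bounds. The fitted EB difference of 1.83 ± 0.26 on the log2(FPKM + 1) scale (SE, limma adjusted p = 0.267) depends on the added 1 FPKM. Platr13 passed the filter through the KO EB libraries alone, so it had to differ, and its test supports nothing. The limits set by 0 fragments cover the counting error of the 0 only. The locus is a single transcript of 375 bases at chr11:41218837-41221096 (GRCm38), 463526 bases from the nearest coding gene, Ccng1.

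Platr3 had 14.5 and 9.20 FPKM in KO EBs, from 64 and 27 fragments, against 2.81 and 4.82 FPKM in WT EBs, from 14 and 25 fragments. The genotypes did not overlap in EBs, with a difference of 1.42 ± 0.34 (SE, limma adjusted p = 0.337). In ESCs its values were 13.8 FPKM in KO cells and 15.9 FPKM in WT cells, so that the KO EB libraries lay around the level of ESCs and the WT EB libraries below it. Platr25, annotated as protein coding in GENCODE, had 2.25 and 1.36 FPKM in KO EBs, against 3.71 and 3.90 FPKM in WT EBs. The difference was -0.79 ± 0.28 (SE, limma adjusted p = 0.368), and in ESCs the KO value was also the lower, at 2.37 FPKM against 7.20 FPKM in WT ESCs.

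Platr11, near the T-box gene Eomes, had 6.22 and 10.8 FPKM in KO EBs, from 25 and 29 fragments, against 1.10 and 5.70 FPKM in WT EBs, from 5 and 27 fragments. Its genotypes did not overlap, and its difference was not called (1.30 ± 0.62, limma adjusted p = 0.437), with a 95% interval from -0.29 to 2.89. Platr17 had its high value in 1 KO EB library, at 10.9 FPKM from 117 fragments, and the second KO EB library, at 4.00 FPKM from 29 fragments, lay within the WT range.

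Of the 22 detected members, 7 had both KO EB values above both WT EB values, 1 had them below and 14 overlapped. How often rows of any kind separate in this way was not counted, so the split is no result about the members. The direction depended on the pair of libraries. Among the EB libraries numbered 1, the KO value was higher for 19 members and lower for 2, while among those numbered 2 it was higher for 11 and lower for 11. The first WT EB library was the lowest of the 4 for 17 of the 22. Of the 16 members tested, 13 had a positive difference with a median of 0.27, against 0.03 over all rows. Without the first WT EB library, 6 were positive and 10 negative with a median of -0.21, and after rescaling without ribosomal-like rows, 10 were positive and 6 negative, with medians of 0.07 for the members and -0.17 for all rows.

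The pluripotency genes stood in the same libraries as follows. Of the 26 listed, 0 were called between KO and WT EBs, 24 had a positive difference and the median was 0.70. Their summed FPKM was 2481 and 2904 in KO EBs and 901 and 1901 in WT EBs, again lowest in the first WT EB library. The count of positive differences was not made without that library, so how far it rests on it is not known. Neuroectoderm markers (6 of 6 detected) summed to 51.3 and 9.99 FPKM in KO EBs and 54.6 and 19.3 FPKM in WT EBs, so the libraries numbered 1 were the high ones in both genotypes. Germ cell markers (5 of 5 detected) summed to 38.8 and 81.7 FPKM in KO EBs and 45.9 and 116 FPKM in WT EBs. The part of these marker levels, or of the share of ribosomal-like rows, in the Platr differences was not tested.

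**Figure D4:**
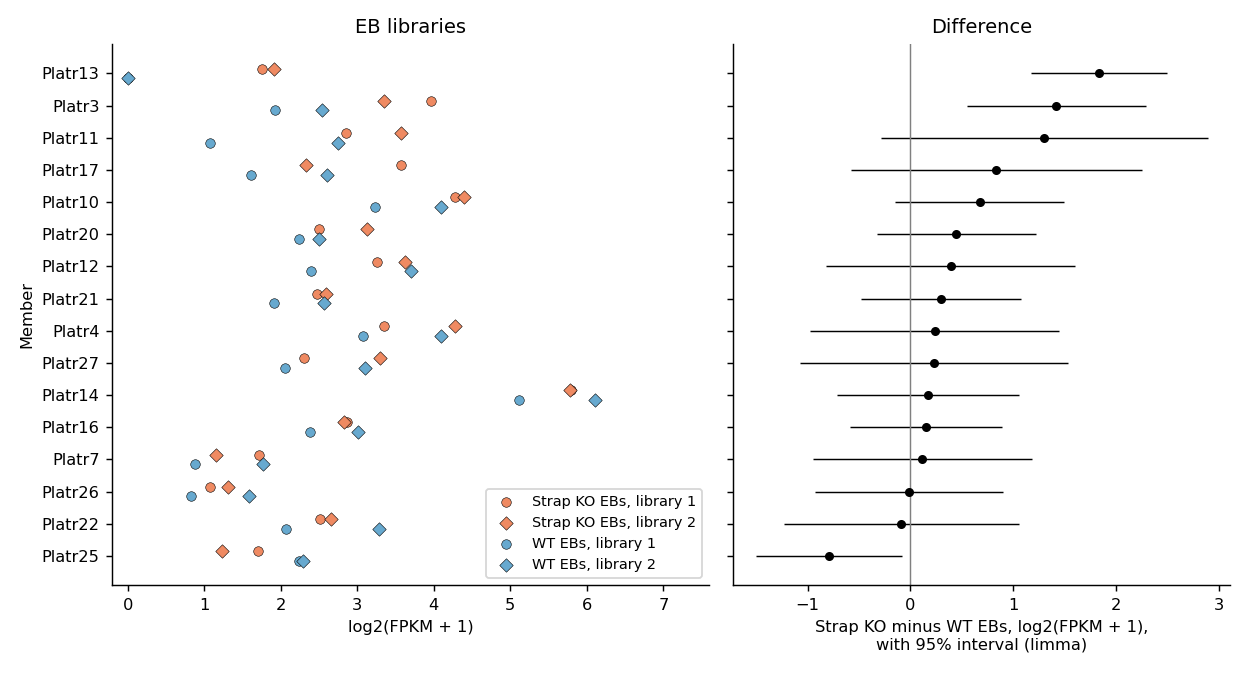
Left, log2(FPKM + 1) of the 16 members tested in the 4 EB libraries, KO above WT for each member and library 1 and 2 as circles and diamonds. Right, the KO minus WT difference on the same scale with its 95% interval from limma. Only the intervals of Platr13, Platr3 and Platr25 stay clear of 0, none after adjustment over all rows.

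In ESCs, each genotype had 1 library, so a difference has no replicate check and no test was made. The KO value was higher for 8 of the 22 detected members and lower for 14. Platr14, Platr10, Platr3, Platr4, Platr17 and Platr21 had KO values at 83.0% to 92.2% of the WT values. Platr16 stood at 31.3% (17.1 FPKM in KO ESCs and 54.4 FPKM in WT ESCs) and Platr25 at 32.8%. Platr7 was read as 1 fragment in KO ESCs, against 24 fragments in WT ESCs, a ratio of 0.0424 (95% counting interval 0.00103 to 0.260, exact Clopper-Pearson). In EBs the same locus had 2.29 and 1.23 FPKM in KO libraries and 0.832 and 2.41 FPKM in WT libraries, which overlapped.

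Other low members also split by genotype in ESCs on few fragments. Platr31, antisense to the metabolic enzyme gene Tigar, had 0 fragments in KO ESCs, against 11 in WT ESCs. Its WT value as read was 3.60 times the limit set by 3 fragments in KO ESCs. In EBs it had 1 and 5 fragments in KO libraries and 2 and 6 in WT libraries. Platr32, inside an intron of Alpk3, had 3 fragments in KO ESCs and 0 in WT ESCs, where reads of unspliced Alpk3 RNA cannot be told apart from it. Platr26, beside the integrin gene Itga6, had 12 fragments in KO ESCs and 5 in WT ESCs, with a ratio of 2.42 and a counting interval of 0.793 to 8.76 that includes 1. Platr1 had 22 fragments in KO ESCs and 9 in WT ESCs, with a ratio of 2.499 (1.11 to 6.17). No order between the genotypes can be read from single libraries at this depth.

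Comparison of WT EBs with WT embryos set cultured differentiation beside the embryo. The highest value of any Platr RNA in an embryo library was 1.35 FPKM, although the embryo libraries were the deeper ones. Of the 22 detected members, 17 had both WT EB values above all 4 embryo values, and 19 had both ESC values above them. All 22 reached 1 FPKM in an ESC library and 3 did in an embryo library, so the choice of detected members favours the ESC count. Neither count was made over all rows, so neither is a result about the members. Platr14 had 33.5 and 68.2 FPKM in WT EBs, against 0.494 and 0.824 FPKM in E9.0 embryos and 1.00 and 1.17 FPKM in E8.0 embryos. Platr10 had 8.39 and 16.0 FPKM in WT EBs, against 0 FPKM in both E9.0 libraries and 0.0753 and 0 FPKM in the E8.0 libraries.

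Limma called 8542 of 14456 rows (59.1%) in this comparison, 30.4% higher in WT EBs. Of the 13 members tested, 12 passed the filter through their EB values, so that they had to differ, while Platr14 also met it in the E8.0 libraries. The differences are given as a description. Platr14 was higher in WT EBs by 4.72 ± 0.29 (SE), Platr10 by 3.63 ± 0.25, Platr4 by 3.28 ± 0.28 and Platr12 by 3.02 ± 0.35 on the log2(FPKM + 1) scale. The smallest differences were those of Platr21 (1.28 ± 0.21) and Platr25 (1.32 ± 0.12), the members with the highest mean levels in embryos. Platr25 had 3.71 and 3.90 FPKM in WT EBs, against 0.803 and 0.838 FPKM in E9.0 embryos and 1.10 and 0.947 FPKM in E8.0 embryos. Platr21 had 2.76 and 4.89 FPKM in WT EBs, against 0.719 and 0.796 FPKM in E9.0 embryos and 1.35 and 0.943 FPKM in E8.0 embryos.

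Platr11 was listed at 0 in all 4 embryo libraries, against 5 and 27 fragments in WT EBs. Its WT EB mean as read was 11.8 times the mean embryo limit, counting a zero as up to 3 fragments in each library. In all, 8 of the 30 members were listed at 0 in every embryo library, among them Platr11, Platr28 and Platr9. Neuroectoderm markers summed to 54.6 and 19.3 FPKM in WT EBs, against 148 and 151 FPKM in E9.0 embryos and 54.3 and 59.7 FPKM in E8.0 embryos. Of the 26 listed pluripotency genes, 23 were called higher and 1 lower in WT EBs, against 30.4% and 28.7% of all rows. Several of them, among them Nanog, Esrrb and Dppa5a, were under 1 FPKM in every embryo library. Such genes passed the filter through WT EBs alone and had to differ, so the count is given as a description. Cultured aggregates and pooled whole embryos differ in material as well as in stage, which cannot be told apart here.

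Comparison of E9.0 with E8.0 embryos had few values to work with. Limma called 3691 of 13262 rows (27.8%), and rescaling without ribosomal-like rows turned 2055 higher and 1636 lower into 1449 higher and 2497 lower. Platr14 was the 1 member that passed the filter, with 0.494 and 0.824 FPKM at E9.0 against 1.00 and 1.17 FPKM at E8.0. Both E9.0 values were below both E8.0 values, and the difference of -0.34 ± 0.15 (SE) was not called (limma adjusted p = 0.155). Platr14 passed the filter through the E8.0 libraries alone, with both E9.0 values under 1 FPKM. The stages thus had to separate, and neither their order nor the test supports a difference. The summed FPKM of all members was 3.03 and 3.47 at E9.0 and 6.94 and 5.67 at E8.0.

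All 30 members matched a gene of the GENCODE M21 annotation of GRCm38 by name. By type, 20 were lincRNAs, 6 processed transcripts, 1 antisense, 1 sense intronic and 2 protein coding (Platr17 and Platr25). A single transcript was annotated for 19. The nearest protein-coding gene overlapped 5 members, lay within 5000 bases of 11 (those 5 included) and beyond 50000 bases of 9, with a median distance of 14002.5 bases. Fragments were assigned by strand in the authors' processing. How completely this separates a member from a gene on the opposite strand was not measured.

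Of the 22 nearest coding genes of detected members, 19 were tested between EBs and ESCs, and 3 were called higher and 5 lower in EBs, against 13% and 14.8% of all rows. Zfp990, a zinc finger gene 61003 bases from Platr16 on the same strand, fell by 2.59 ± 0.36 (SE, limma adjusted p = 0.00643), with 4.62 and 5.97 FPKM in KO EBs and 2.45 and 6.06 FPKM in WT EBs, against 26.6 FPKM in KO ESCs and 39.3 FPKM in WT ESCs. Platr16 and Zfp990 thus were both lower in all 4 EB libraries than in either ESC library. Trap1a, which Platr21 overlaps on the opposite strand, had 38.0 and 38.1 FPKM in KO EBs and 20.2 and 26.9 FPKM in WT EBs, against 59.3 FPKM in KO ESCs and 53.9 FPKM in WT ESCs, and fell by 0.90 ± 0.18 (limma adjusted p = 0.0179).

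Near Platr14, Platr10 and Platr22, the member and the neighbours given here differed in level or direction. Cstf3, a cleavage stimulation factor gene 19094 bases from Platr14, had a mean of 42.2 FPKM in EBs, 37.5 FPKM in ESCs and 36.6 FPKM in embryos, where Platr14 had means of 52.5, 98.3 and 0.872 FPKM. Serpini1, 3951 bases from Platr10, averaged 0.939 FPKM in EBs, 0.791 FPKM in ESCs and 0.555 FPKM in embryos, beside 15.7, 45.1 and 0.0188 FPKM for Platr10. Zfp281, 66158 bases from Platr22, averaged 19.3 FPKM in EBs and 24.1 FPKM in ESCs and was not called (adjusted p = 0.154), and the second nearest coding gene, Nr5a2, fell by 1.23 ± 0.33 (limma adjusted p = 0.0402) where Platr22 rose. Eomes, 72113 bases from Platr11, had 4.10 and 6.76 FPKM in KO EBs and 1.61 and 5.98 FPKM in WT EBs. It had 2.90 FPKM in KO ESCs and 2.65 FPKM in WT ESCs, and was at 0.19 FPKM or less in embryos. Platr11 had 6.22 and 10.8 FPKM in KO EBs and 1.10 and 5.70 FPKM in WT EBs, and 0 FPKM in embryos. Both thus were lowest in the first WT EB library and highest in the second KO EB library among EBs. That order does not set the pair apart, since Platr10, Pou5f1 and Nanog had it too. The first WT EB library was the lowest EB library for 17 of the 22 detected members.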

How the data were processed

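RNA was measured in 10 libraries of ESCs, EBs and pooled WT embryos. The authors depleted ribosomal RNA, sequenced paired 75-base reads, trimmed adapters, aligned the reads with STAR 2.5.2b to GRCm38 and ran Cufflinks 2.2.1 by strand. They deposited 1 table of FPKM, scaled to transcript length and mapped fragments. Any further scaling between libraries is not given in the sources used here, and 2 different depletion kits are named. E8.0 columns have headers of a later stage, and the labels were followed.

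For members with 1 transcript, fragments behind a value were recovered from the steps between low FPKM values, which came out whole (within 0.05) for 96.5% to 97.6% of low values. No count test was run on them. A count of 0 was taken to allow 3 fragments, and limits and intervals cover counting error only. A ratio to such a limit takes the other value as read, without its counting error.

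Limma 3.58.1 (R 4.3.3) tested log2(FPKM + 1), a scale that understates the change of low genes, with a trend in the moderated variance. Rows needed 1 FPKM in 2 libraries of the fit. Two-sided p-values were adjusted over all tested rows (Benjamini-Hochberg) and called under 0.05. EBs against ESCs used 6 libraries with genotype as a covariate, KO against WT EBs the 4 EB libraries, E9.0 against E8.0 the 4 embryo libraries, and WT EBs against embryos 6 libraries. The scripts were tested on simulated data.

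Every detected member was named, those reaching 5 FPKM in full, with nearest coding genes and listed context genes. The members and lists were chosen with earlier results of these data known. Alternatives changed the pseudocount (0.1), the filter, the scaling, the libraries in the fit, the variance trend and the replicate block, and left out each library in turn.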

Additional observations from a re-analysis of the deposited data

Results flagged for a closer look

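Platr3 and Platr10 had KO and WT values in the opposite order in EBs and in ESCs, with both KO EB libraries above both WT EB libraries and the KO ESC library below the WT ESC library. For Platr3, the KO minus WT difference on the log2(FPKM + 1) scale was 1.42 in EBs and -0.19 in ESCs, and these differed by 1.61 (limma genotype by stage term over 6 libraries, adjusted p = 0.901). For Platr10 the difference was 0.67 in EBs and -0.11 in ESCs, and these differed by 0.79 (limma adjusted p = 0.916). Each ESC group had 1 library. No group had enough libraries to ask whether a single one lay far from the others.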

How the results depend on the processing

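With all 10 libraries in 1 fit, limma called 7215 rows and 9 members between EBs and ESCs, 651 rows and 2 members between KO and WT EBs, and 478 rows between E9.0 and E8.0. With 8 EB and embryo libraries it called 610 rows and 2 members between KO and WT EBs, and 485 rows between the embryo stages. Rescaling without ribosomal-like rows gave 8 members between EBs and ESCs, and moved the KO minus WT difference of Platr14 in EBs to -0.063. With no filter, 2 rows were called between KO and WT EBs, and 2061 rows and 1 member (Platr4) between the embryo stages. A filter of FPKM of at least 5 gave 3 rows between KO and WT EBs and 3 members between WT EBs and embryos, and a detection level of 5 left 13 members. The cause of these changes was not tested.

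The replicate numbers in the titles do not state a shared culture or batch. Deviations of libraries with the same number correlated at 0.451 in EBs and -0.0375 in embryos over all rows tested. With the replicate block, 710 rows and 1 member, Platr13 (adjusted p = 0.0316, past the filter through the KO EBs alone), were called between KO and WT EBs, and 0 members between E9.0 and E8.0.

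Leaving out each library in turn gave 898 to 3790 rows and 0 to 5 members between EBs and ESCs, 0 to 5 rows and 0 members between KO and WT EBs, 1616 to 2265 rows between the embryo stages, and 6558 to 9652 rows with 13 members between WT EBs and embryos. The KO minus WT difference of Platr14 ranged from -0.33 (without the first WT EB library) to 0.67 (without the second). Of the single-member values recomputed, 326 kept their direction and side of the threshold, 18 passed it, 19 lost it and 2 turned. The limits lie in 1 library per ESC genotype, 2 per other group, and, for the low members, fragments in the single digits in ESCs.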
